A study of Danio rerio with 16 samples.

Results

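The liver transcriptomes of Src-carrying zebrafish were compared with those of zebrafish without the Src transgene, all kept on the normal diet (NOR). All NOR libraries were taken and divided by genotype as their labels give it, so that 8 of the 16 libraries entered, 4 on each side. The carriers were 2 libraries of Src(p53-), Tg(fabp10a:src,p53-), and 2 of HBx,Src(p53-), Tg(fabp10a:HBx,src,p53-). The non-carriers were 2 libraries of WT, the AB strain with no transgene, and 2 of HBx(p53-), Tg(fabp10a:HBx,p53-). HBx, the X antigen of hepatitis B virus, was therefore carried by 2 libraries on each side. The p53 mutation was not balanced in this way. All 4 carriers were p53 mutant, and among the non-carriers only the HBx(p53-) pair was, so that WT differed from Src(p53-) in both src and p53. In every transgenic line the transgene was driven by the fabp10a promoter, which is active in hepatocytes. Fish entered the feeding scheme at 3 months of age and received daily powdered feed and 1 daily ration of Artemia for 8 weeks before the livers were taken. The labels do not say whether a library came from 1 fish or from pooled fish, but the study's supplementary legends count 16 fish for sequencing. The sex of the fish is not given in the labels, and nothing in them says whether 2 libraries of a genotype came from separate tanks or days. P-values therefore measure only the spread between these libraries, which may in part be technical. Expression was read as FPKM, a fragment count scaled to transcript length and to the mapped fragments of the library, and no read counts were used, so how many reads stand behind any 1 gene is unknown.

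Src is a tyrosine kinase that sits at the inner face of the cell membrane and passes signals from growth factor receptors and integrins to the cytoskeleton, to the Ras and PI3-kinase pathways, and to transcription factors. It was the first proto-oncogene to be recognized, and its raised activity is known in hepatocellular carcinoma, where it goes with proliferation, loss of cell contacts, and invasion. The p53 protein acts on the other side, as a transcription factor that stops the cell cycle or starts cell death after damage. The comparison asks which hepatic genes differ with Src in fish that were not overfed.

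The library of HBx,Src(p53-) numbered 1 and the second WT library stood apart, and their values are named wherever they decide a result. Across 12454 genes, WT library 2 correlated better with the second Src(p53-) library (Pearson's r = 0.903) than with WT library 1 (r = 0.845). Other libraries also had their highest r outside their genotype, such as HBx(p53-) 1 with WT 1 (0.902, against 0.896 within HBx(p53-)), HBx,Src(p53-) 2 with Src(p53-) 1 (0.901), and HBx,Src(p53-) 1 with HBx(p53-) 1 (0.872, against 0.854 within HBx,Src(p53-)), and r was 0.929 within Src(p53-). The first principal component, with 30.3% of the variance, set WT library 1 and both HBx(p53-) libraries on one side and the other 5 libraries, WT library 2 included, on the other. Summed FPKM ranged from 864489 to 1218150 over the 8 libraries, which had 20847 to 23001 genes above 0.

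The levels of src followed the labels. The 4 non-carriers had 1.43, 0, 4.15 and 3.51 FPKM (in the order WT 1, WT 2, HBx(p53-) 1, HBx(p53-) 2, which is kept throughout), and the 4 carriers had 14.2, 20.3, 15.7 and 14.96 FPKM (Src(p53-) 1, Src(p53-) 2, HBx,Src(p53-) 1, HBx,Src(p53-) 2). The lowest carrier was thus above the highest non-carrier, and within the non-carriers the HBx(p53-) libraries lay above the WT libraries. The mean was 16.3 ± 2.74 FPKM (SD, n = 4) in carriers and 2.27 ± 1.91 in non-carriers, 7.17-fold apart, and the exact two-sided permutation test over 70 splits gave p = 0.0286, the smallest p that 4 libraries against 4 can reach. The splits treated the 8 libraries as exchangeable, although they came as 2 libraries of each of 4 genotypes. The log2 difference was 2.65 (SE 0.40), and with limma and adjustment over all genes it did not pass the threshold (adjusted p = 0.0893). Whether reads of the transgene align to the zebrafish gene is not stated in the sources used here. The gene of the promoter, fabp10a, the liver fatty acid binding protein, had 1628, 958, 1992 and 3134 FPKM in non-carriers and 1801, 1774, 1732 and 1859.6 in carriers (log2 difference 0.02, exact p = 0.943), so the groups overlapped.

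**Figure D1:**
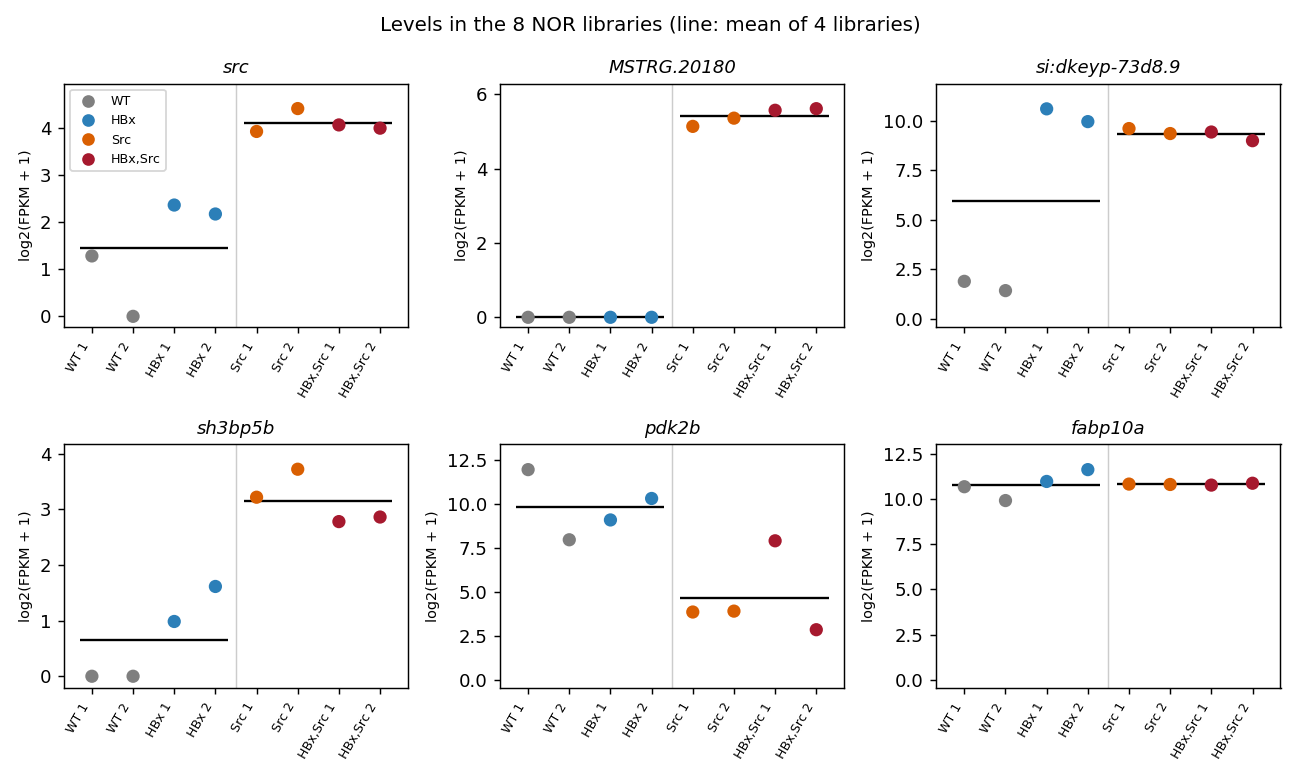
Level of 6 genes in each NOR library, as log2(FPKM + 1), with genotype by colour and the mean of 4 non-carriers (left) or 4 carriers (right) as a line. For src and sh3bp5b all carriers lie above all others, for MSTRG.20180 the non-carriers are all listed at 0, si:dkeyp-73d8.9 is low in WT alone, pdk2b lies lower in all carriers, and fabp10a overlaps.

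Few genes passed a test across the transcriptome. Among 12454 genes whose mean reached 1 FPKM, limma called 2 as higher in carriers (0.0161%) and 0 as lower (0%) at an adjusted p under 0.05, whereas 1670 (13.4%) had an unadjusted p under 0.05, of which 1397 (11.2%) were higher and 273 (2.19%) lower. Counted by separation of the libraries and with no p-value, 774 genes (6.21%) had all 4 carriers above all 4 non-carriers and 85 (0.683%) had them below. With a log2 difference of at least 1 in size as well, these were 426 (3.42%) and 58 (0.466%). The excess of higher genes went with a shift of the whole distribution, and 8971 of the 12454 genes had a positive log2 difference. The median log2 difference over all genes was 0.33, against 0.29 after scaling every library to the same FPKM sum and 0.02 after quantile normalization, by which all libraries take on one distribution of values. After quantile normalization the 2-fold separated genes were 146 higher (1.17%) and 156 lower (1.25%), and those separated at any size were 289 (2.32%) and 301 (2.42%). The direction of the excess therefore depended on the scaling, and the values that follow stand beside a shift of 0.33. Leaving out any 1 library makes separation easier by construction, so higher counts of separated genes do not by themselves show the weight of that library. Without WT library 2 the 2-fold separated genes numbered 1396 higher and 235 lower, without HBx,Src(p53-) library 1 752 and 239, without Src(p53-) library 1 797 and 69, and without Src(p53-) library 2 440 and 95. Without HBx(p53-) library 1 there were 124 lower genes. The calls moved as well, to 5 higher and 9 lower without WT library 2, 3 and 2 without WT library 1, 3 and 0 without HBx,Src(p53-) library 1, and 1 and 0 without any 1 of the other 5 libraries.

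The gene with the smallest adjusted p has no name. MSTRG.20180, an assembled gene that the files leave without a symbol, was listed at 0 in all 4 non-carriers and at 34.2, 40.0, 46.5 and 48.0 FPKM in the 4 carriers (mean 42.2 ± 6.35, SD, n = 4, limma adjusted p = 0.000729). Its call was kept with each of the 8 libraries left out, and also within the HBx carriers, without HBx, and among p53 mutants only. The other called gene, si:dkeyp-73d8.9, also rose by the test, but its libraries were not separated by src. It had 2.73, 1.70, 1556 and 996 FPKM in non-carriers and 780.4, 655, 691 and 510.1 in carriers, so that both WT libraries were low and all 6 libraries of p53 mutant transgenic fish were high, the HBx(p53-) pair highest. The log2 difference was 3.38 (SE 0.32, limma adjusted p = 0.0194), it was 7.82 for Src(p53-) against WT and -1.07 for HBx,Src(p53-) against HBx(p53-), and the call was lost when any of the 6 libraries other than WT was left out (adjusted p from 0.0566 to 0.238). When all 16 libraries of the series entered one fit with the same NOR contrast, limma called 17 genes as higher (0.137%) and 2 as lower (0.0161%), and sqlea, src, sh3bp5b, mtmr8, zgc:171534, and si:dkeyp-73d8.9 were among the higher ones. The log2 differences in that fit were still those of the 8 NOR libraries. Libraries of the other diets could enter only the estimate of spread, and of these groups only overfed HBx,Src(p53-) had 2 libraries. The added calls are therefore no further measurement of the difference.

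Among the named genes that were separated in the direction of higher levels, those with the smallest p came from several processes. One of the smallest was that of sh3bp5b, an SH3-domain binding protein whose mammalian counterpart activates the vesicle GTPase Rab11, with 0, 0, 0.979 and 2.06 FPKM in non-carriers and 8.31, 12.2, 5.87 and 6.27 in carriers. Both WT libraries were at 0, and the lowest carrier lay well above the highest HBx(p53-) library (log2 difference 2.496, SE 0.34, limma adjusted p = 0.0712). The chemokine gene cxcl8b.3, of the interleukin 8 family that draws neutrophils, had 0.328, 0, 0.591 and 0 against 2.11, 2.62, 7.98 and 5.63 FPKM (log2 difference 2.08, adjusted p = 0.122). Levels of rdh12, a retinol dehydrogenase, were 3.47, 5.45, 3.48 and 2.58 FPKM in non-carriers, a narrow range, and 14.8, 13.7, 36.6 and 21.8 in carriers (log2 difference 2.19, adjusted p = 0.122). In this gene the HBx,Src(p53-) libraries were the highest 2 of the carriers. For prkrip1, a splicing-related protein, the values were 0.730, 2.19, 0.379 and 1.85 against 9.40, 12.6, 12.6 and 6.499 FPKM (log2 difference 2.34, adjusted p = 0.136). The phosphoinositide phosphatase gene mtmr8 had 4.82, 6.56, 0 and 0 against 8.11, 7.12, 12.4 and 24.1 FPKM. It was separated, but narrowly for the Src(p53-) pair, which lay just above WT, while HBx(p53-) was at 0 and HBx,Src(p53-) highest (log2 difference 2.28, adjusted p = 0.107). The uncharacterized zgc:171242 had 0, 0, 2.78 and 0 against 7.14, 4.58, 25.5 and 9.11 FPKM, with 3 non-carriers at 0. None of these genes passed the limma threshold in the 8 NOR libraries.

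In the direction of lower levels the largest separated difference was that of pdk2b, a pyruvate dehydrogenase kinase that restrains the entry of pyruvate into the citric acid cycle. It had 3964, 249, 545 and 1272 FPKM in non-carriers and 13.5, 14.0, 239 and 6.24 in carriers. In 3 carriers it lay more than 10-fold below every non-carrier, but HBx,Src(p53-) library 1 was only just below WT library 2 (log2 difference -5.20, SE 1.14, limma adjusted p = 0.173). Levels of nopchap1, whose human counterpart is a chaperone of small nucleolar ribonucleoproteins, were 20.3, 13.7, 12.9 and 14.0 FPKM in non-carriers and 3.78, 4.52, 7.83 and 5.26 in carriers (log2 difference -1.37, adjusted p = 0.225). The tRNA cytosine methyltransferase gene trdmt1 had 6.37, 2.85, 4.81 and 8.95 against 1.36, 1.80, 0.802 and 1.05 FPKM (log2 difference -1.52, adjusted p = 0.215). For exosc3, a subunit of the RNA exosome that degrades and trims RNA, the values were 56.8, 29.8, 32.2 and 107 against 15.3, 16.9, 29.0 and 17.3 FPKM, and HBx,Src(p53-) library 1 came within 1 FPKM of WT library 2. The log2 differences of gtpbp10, a GTPase of mitochondrial ribosome assembly, ipo7, a nuclear import receptor, hddc2, a deoxynucleotidase, and faxdc2, of the fatty acid hydroxylase family, were -1.16, -0.86, -1.15, and -1.20. That of the uncharacterized si:ch211-163l21.7 was -1.105, and the adjusted p-values of these 5 genes lay between 0.29 and 0.339. None of the separated lower genes passed the limma threshold.

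Genes of cholesterol synthesis had the largest median difference of the 22 lists of pathways and processes examined. This pathway builds cholesterol from acetyl-CoA through mevalonate, squalene, and lanosterol, and its genes are switched on together by the transcription factor Srebf2. All 16 tested members, the regulators srebf2 and insig2 included, had positive log2 differences, where 8971 of all 12454 genes did. The median was 1.73 against 0.33 over all genes, and 1.45 after quantile normalization. Of the 16, 8 were separated upward (50% of the list against 6.21% of all genes). Higher with an unadjusted p under 0.05 were 12 (11.2% of all genes), and 0 were called. The level filter used the mean of all 8 libraries, so members low in non-carriers, such as sqlea, entered only through the carriers. At the entry of the pathway, acat2, a cytosolic thiolase, had 2.61, 16.6, 3.87 and 2.09 FPKM in non-carriers and 27.04, 45.1, 31.8 and 56.7 in carriers (log2 difference 2.83, SE 0.56, limma adjusted p = 0.152). WT library 2 was the highest non-carrier. Squalene epoxidase, sqlea, was nearly silent in non-carriers (0.245, 0.751, 0.0645 and 0 FPKM) and had 2.75, 1.53, 110.0 and 22.8 FPKM in carriers (log2 difference 3.35, SE 0.50, adjusted p = 0.0893), so that the HBx,Src(p53-) pair lay far above the Src(p53-) pair. The methylsterol oxidase gene msmo1 had 5.13, 11.7, 4.50 and 12.2 against 30.6, 30.2, 211 and 71.8 FPKM (log2 difference 2.85, adjusted p = 0.136). In all of these genes but acat2, HBx,Src(p53-) library 1 was the highest library. Without it the median of the list was 1.44, and without any other library it lay between 1.54 and 2.15.

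The difference was not even along the pathway or between the pairs of genotypes. The list median was 0.97 for Src(p53-) against WT and 3.05 for HBx,Src(p53-) against HBx(p53-), against 0.27 and 0.38 over all genes. Chosen after its values were seen, hmgcra, the rate-limiting reductase, had 42.4, 84.4, 16.4 and 37.8 FPKM in non-carriers and 45.4, 44.2, 612 and 117 in carriers. Only the HBx,Src(p53-) pair lay above all non-carriers there, and the Src(p53-) pair lay within the range of WT (log2 differences -0.41 without HBx and 3.37 with HBx, interaction adjusted p = 0.681). The sterol isomerase ebp, likewise chosen after its values were seen, had 0.731, 12.2, 0.290 and 0.769 against 13.5, 25.96, 119.5 and 20.1 FPKM, with WT library 2 close to the lowest carrier. The regulator srebf2 itself had 320.2, 291, 146 and 414 against 362, 455, 615 and 908 FPKM, overlapping between HBx(p53-) library 2 and Src(p53-) library 1 (log2 difference 1.00, SE 0.37, adjusted p = 0.33).

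**Figure D2:**
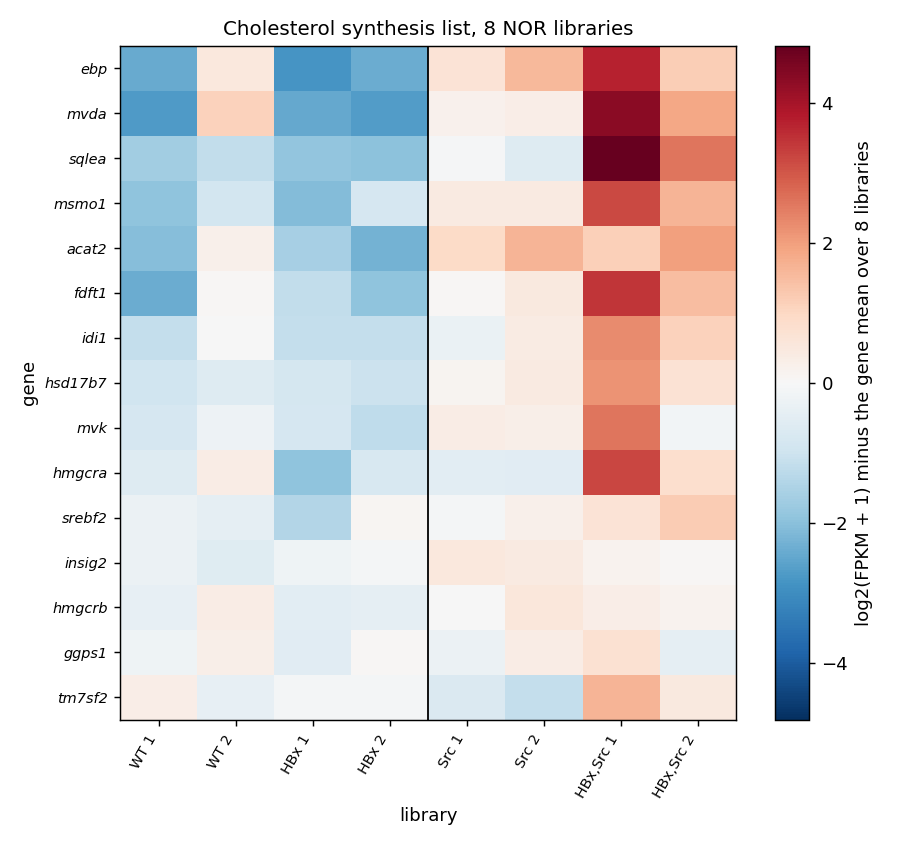
Cholesterol synthesis genes, 1 tested member left out, in each NOR library, as log2(FPKM + 1) minus the mean of the gene over the 8 libraries, with red above and blue below the mean and the genes ordered by their log2 difference. HBx,Src(p53-) library 1 is the reddest column, with 110.0 FPKM for sqlea, the Src(p53-) columns are pale by comparison, and WT library 2 lies near or above the mean in several genes, such as ebp and acat2.

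Among genes of fatty acid and triglyceride synthesis, 22 members were tested and their median was 0.59 (0.28 after quantile normalization), with 3 separated upward (13.6%, against 6.21% of all genes) and 0 called. ATP citrate lyase, aclya, which supplies cytosolic acetyl-CoA, had 68.3, 134, 34.7 and 102 FPKM in non-carriers and 167, 252, 164 and 437 in carriers (log2 difference 1.62, adjusted p = 0.292). The elongation enzyme gene hsd17b12b had 47.7, 69.4, 50.1 and 51.4 against 131, 113, 122 and 173 FPKM, the groups lying well apart (log2 difference 1.28, adjusted p = 0.237). For pparg, a nuclear receptor that favours fat storage, the values were 11.04, 10.6, 10.5 and 14.8 against 15.2, 31.2, 22.04 and 17.4 FPKM, separated by a small gap (log2 difference 0.78, adjusted p = 0.41). The desaturase gene scd varied more than any of these. It had 1.57, 728, 6.96 and 122 FPKM in non-carriers and 492, 3272, 276 and 516 in carriers, and WT library 2 lay above 3 of the 4 carriers (log2 difference 4.24, SE 1.63, adjusted p = 0.336). Glucokinase, gck, had the same outlying WT library, with 1.64, 293, 0.860 and 1.55 against 179, 3649, 2.09 and 231 FPKM (log2 difference 4.24, SE 1.75), and HBx,Src(p53-) library 1 lay with the low non-carriers. The acyltransferases of phosphatidic acid synthesis, agpat2, agpat4, and agpat5, had log2 differences of 0.36, 0.77, and 0.38, and the phosphatases plpp2b and plpp5 of 0.29 and -0.41, all with overlapping groups and adjusted p-values from 0.434 to 0.786. The binding protein gene fabp7a had 6.96, 55.2, 1.99 and 20.6 against 114, 70.6, 28.4 and 83.1 FPKM (log2 difference 2.37, adjusted p = 0.315).

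Genes of the cell cycle were low in these livers, and only 30 of 67 matched members reached a mean of 1 FPKM. Of the 30, 29 had a positive log2 difference, where 8971 of all 12454 genes did. Upward separation was seen in 7 of the 30 (against 6.21% of all genes), and in 5 after quantile normalization (against 2.32% of all genes). Higher with an unadjusted p under 0.05 were 15 (11.2% of all genes), and 0 were called. The mean was taken over all 8 libraries, so members low in non-carriers, such as rpa3 and cdk2, entered only through the carriers. These counts rest in part on that choice. The median was 1.06 (0.74 after quantile normalization). The separated members included parts of the DNA replication machinery. For rpa3, a subunit of the single-strand DNA binding complex, non-carriers had 0, 0.469, 0.993 and 0 FPKM and carriers 3.21, 4.38, 3.48 and 4.38 (log2 difference 1.88, SE 0.37, limma adjusted p = 0.152). The replicative helicase gene mcm6 had 0.891, 0.417, 0 and 3.00 against 5.29, 6.44, 5.32 and 7.13 FPKM (log2 difference 1.95, adjusted p = 0.215). Ribonucleotide reductase, rrm1, which makes deoxynucleotides, had 0.470, 5.54, 1.49 and 1.53 against 6.29, 13.5, 21.5 and 17.9 FPKM, with WT library 2 just below the lowest carrier (log2 difference 2.38, adjusted p = 0.17). The transcription factor gene e2f3, which drives entry into S phase, had 3.26, 5.04, 2.22 and 3.77 against 5.85, 5.50, 20.8 and 37.6 FPKM, and its Src(p53-) pair lay only slightly above WT library 2 while the HBx,Src(p53-) pair was several times higher. The kinase gene cdk2 had 0.721, 0.861, 0.936 and 0.397 against 1.98, 2.77, 4.40 and 5.25 FPKM (log2 difference 1.36, adjusted p = 0.215). Its partner cyclin, ccne1, had 1.03, 1.48, 0.440 and 1.71 against 0.600, 0.458, 5.86 and 0.691 FPKM, with only HBx,Src(p53-) library 1 above the rest, and cdk1 was at 0.254 FPKM or lower in every library and not tested. The list median was 0.33 for Src(p53-) against WT, near the 0.27 of all genes, and 1.89 for HBx,Src(p53-) against HBx(p53-), where all genes had 0.38.

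Markers of leukocytes had the largest median among the cell type markers with at least 10 tested genes. In bulk liver RNA, more cells of a type and more RNA per cell cannot be told apart. All 12 tested leukocyte markers had positive log2 differences, beside 8971 of all 12454 genes. Here too, the level filter used all libraries, so that low members could enter through the carriers alone. Of the 12, 6 were separated upward (6.21% of all genes), and 4 after quantile normalization (2.32% of all genes). None was called, and the median was 1.09 (0.79 after quantile normalization). The summed level of the 18 matched markers was between 30.3 and 60.1 FPKM in non-carriers and between 72.7 and 164 in carriers, highest in HBx,Src(p53-) library 1. The actin-bundling protein of leukocytes, lcp1, had 7.25, 4.29, 15.5 and 10.7 FPKM in non-carriers and 15.8, 21.1, 36.0 and 44.5 in carriers (log2 difference 1.55, SE 0.38, limma adjusted p = 0.215), with HBx(p53-) library 1 barely below the lowest carrier. The macrophage gene mpeg1.1 had 0.655, 2.59, 2.096 and 1.22 against 3.17, 4.81, 5.55 and 6.65 FPKM, the small GTPase gene rac2 0.943, 1.17, 0.808 and 0.207 against 1.97, 2.34, 3.17 and 4.74 FPKM, and the antigen-presentation gene cd74b 2.06, 3.74, 3.72 and 2.03 against 6.60, 7.42, 10.5 and 6.02 FPKM, each separated. The T-cell kinase gene lck, itself of the Src family, had 0, 0, 4.45 and 4.22 against 3.97, 2.17, 5.84 and 9.08 FPKM, at 0 only in WT, so that HBx(p53-) overlapped with the carriers.

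Genes of innate immunity and of the extracellular matrix had smaller medians. Of 38 tested innate immunity genes 9 were separated upward (23.7%, against 6.21% of all genes), 0 downward (0.683% of all genes), and 0 were called. The median was 0.66 (0.33 after quantile normalization, where 5 were separated upward, against 2.32% of all genes). The level filter used all 8 libraries, so low members such as isg15 and leap2 entered only through the carriers. Of the 9, 3 are also leukocyte markers, mpeg1.1, cd74b, and cd74a. The cytokine receptor kinase gene jak1 had 4.44, 6.27, 4.02 and 7.38 FPKM in non-carriers and 10.96, 17.4, 10.6 and 16.01 in carriers (log2 difference 1.18, adjusted p = 0.308), whereas the interferon regulatory factor gene irf1b had 0.411, 0.188, 4.22 and 7.74 against 3.91, 4.99, 6.19 and 6.53 FPKM and was low in WT only. Of 53 genes of extracellular matrix and adhesion, 48 had a positive log2 difference (8971 of all 12454 genes did), with a median of 0.64 (0.35). Separated upward were 5, or 9.43%, near the 6.21% of all genes, and 2 after quantile normalization (against 2.32% of all genes). The actin crosslinker gene actn1 had 2.07, 1.18, 0.425 and 1.43 against 3.06, 7.13, 4.15 and 11.6 FPKM (log2 difference 1.63, adjusted p = 0.239), and the laminin chain gene lamb1a 3.41, 2.35, 4.29 and 5.28 against 10.2, 12.3, 6.02 and 17.5 FPKM (log2 difference 1.32, adjusted p = 0.295). For lgals2a, a galectin, and myl9a, a myosin light chain, the log2 differences were 1.17 and 1.51, with groups that overlapped at Src(p53-) library 1.

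**Figure D3:**
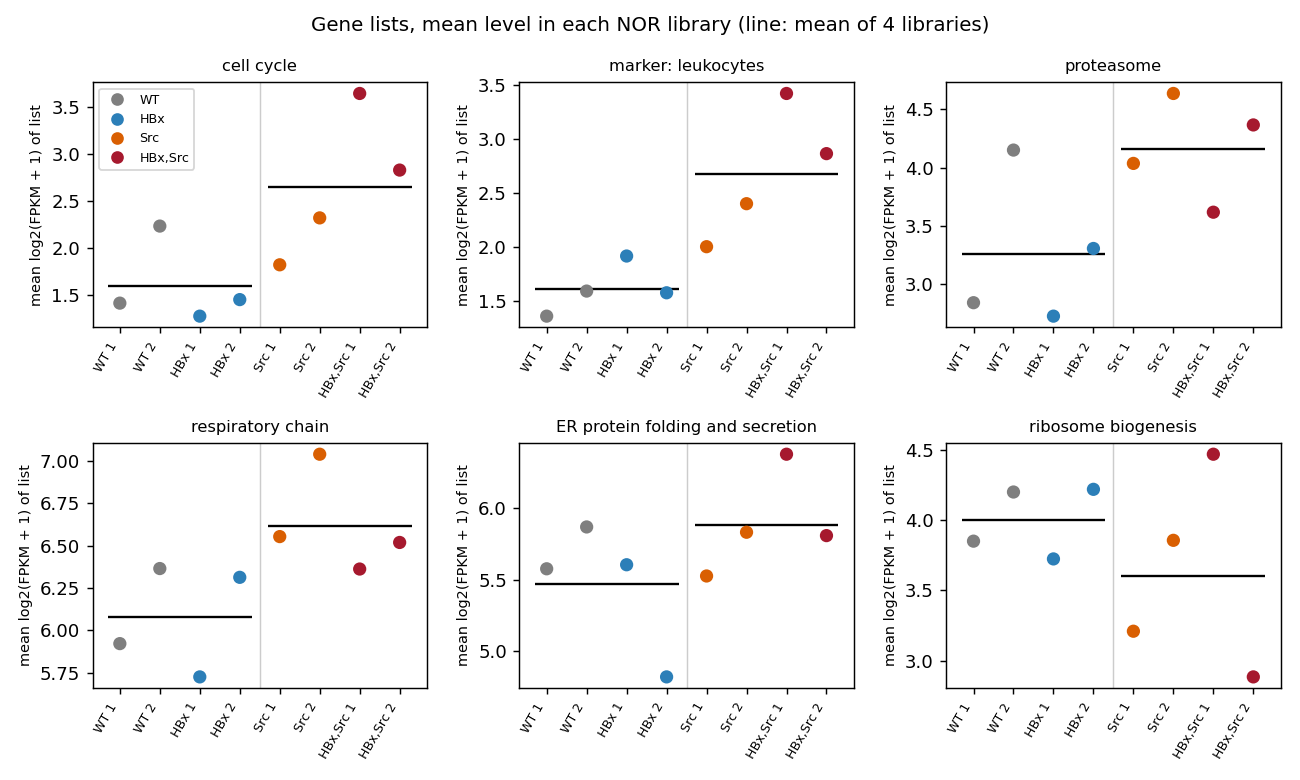
Mean log2(FPKM + 1) over the tested members of 6 gene lists in each NOR library, with genotype by colour and the mean of 4 libraries as a line. Of the 6 lists drawn (cell cycle, leukocyte markers, proteasome, respiratory chain, ER, and ribosome biogenesis), the leukocyte markers have the 4 carriers above the 4 non-carriers and the others overlap, WT library 2 lies among the carriers for the proteasome and the cell cycle, and HBx,Src(p53-) libraries 1 and 2 are the highest and the lowest for ribosome biogenesis.

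Genes of protein turnover and of mitochondria formed broad, small shifts. For the proteasome, 43 of 44 tested subunit genes had a positive log2 difference, where 8971 of all 12454 genes did, and the median was 0.90 (0.57 after quantile normalization), but 2 were separated upward (4.55%, below the 6.21% of all genes) and 0 called. Beside this stood WT library 2, which had a mean of 4.15 over the list on the log2(FPKM + 1) scale, against 2.72 to 3.31 in the other non-carriers and 3.62 to 4.64 in carriers. The subunit gene psmc6 shows it, with 2.70, 11.2, 2.99 and 2.97 FPKM in non-carriers and 14.2, 22.3, 6.10 and 13.3 in carriers, and psma6a, psmd5, and psmc1a had log2 differences of 1.44, 1.22, and 1.42 with the same overlap. Without WT library 2 the list median was 1.28 and without WT library 1 it was 0.59. For the respiratory chain, 69 of 72 genes had a positive log2 difference with a median of 0.53 (0.30). Upward separation was seen in 10 (13.9%, against 6.21% of all genes), and in 5 after quantile normalization (against 2.32% of all genes). The complex I gene ndufs1 had 142, 172, 137 and 175 FPKM in non-carriers and 281, 373, 237 and 307 in carriers (log2 difference 0.92, adjusted p = 0.308), uqcrc2b of complex III had 67.5, 77.8, 36.1 and 57.5 against 102, 148, 105 and 112 FPKM, and ndufc1 had 23.8, 41.3, 29.1 and 29.2 against 60.8, 83.4, 49.1 and 64.2 FPKM. The ATP synthase subunit gene atp5mc1 had a log2 difference of 1.55, and its values were 23.5, 66.5, 14.2 and 28.1 against 80.5, 117, 59.6 and 92.5 FPKM, with WT library 2 above the lowest carrier. In amino acid metabolism, 46 genes were tested, with a median of 0.38, near the 0.33 of all genes. Separated upward were 4 (8.70%, near the 6.21% of all genes), and 2 after quantile normalization (against 2.32% of all genes). Among the 4 were mccc2 and bckdhb, which degrade branched-chain amino acids, with 18.8, 33.3, 21.1 and 22.8 against 60.4, 112, 66.5 and 56.7 FPKM and 5.61, 6.87, 6.93 and 6.05 against 13.8, 18.9, 12.0 and 14.3 FPKM. The lysine-degrading aldh7a1 had 144, 228, 187 and 232 FPKM in non-carriers and 297.5, 398, 253.01 and 309 in carriers (log2 difference 0.67, adjusted p = 0.391), also separated.

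For protein folding and secretion in the endoplasmic reticulum, 64 genes were tested, 10 were separated upward (15.6%, against 6.21% of all genes) and 1 downward (0.683% of all genes), and 0 were called. After quantile normalization 4 were separated upward (against 2.32% of all genes) and 0 downward (against 2.42% of all genes). The median was 0.47 (0.22 after quantile normalization), 0.08 for Src(p53-) against WT and 0.88 for HBx,Src(p53-) against HBx(p53-), and without HBx(p53-) library 2, the lowest in this list, it was 0.24. The disulfide isomerase gene pdia6 had 12.2, 11.8, 11.2 and 7.08 FPKM in non-carriers and 28.9, 42.7, 43.5 and 72.5 in carriers (log2 difference 2.00, SE 0.39, limma adjusted p = 0.15). Subunits of the oligosaccharyltransferase, which attaches sugar chains to nascent proteins, were separated too, ddost with 85.1, 126, 65.1 and 56.5 against 197, 192, 139 and 211 FPKM and ostc with 126, 166, 126 and 69.4 against 315, 265, 197 and 275 FPKM. The vesicle coat gene sec13 had 202, 678, 169 and 162 against 587, 907, 408 and 635 FPKM, where WT library 2 lay above 3 carriers.

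Genes of ribosome biogenesis lay on the other side of zero. Of 74 tested genes, 64 had a negative log2 difference, where 3483 of all 12454 genes did. Separated downward were 0 (0.683% of all genes) and upward 1 (1.35%, against 6.21% of all genes), and 0 were called. The median of -0.33 (-0.65 after quantile normalization) rested on single carriers, since it was 0.13 without HBx,Src(p53-) library 2 and -0.77 without HBx,Src(p53-) library 1. The nucleolar gene ppan shows this spread, with 77.5, 116, 36.0 and 59.9 FPKM in non-carriers and 3.59, 17.2, 140.4 and 8.56 in carriers (log2 difference -1.88, SE 0.83). The GTPase gene gtpbp4, needed for the large subunit, had 861, 339, 572 and 809 against 250.0, 343, 414 and 295 FPKM, with WT library 2 at the level of the carriers, and utp3 and rrp12 of the small subunit pathway had log2 differences of -1.40 and -1.29. The 71 cytosolic ribosomal protein genes themselves had a median of 0.07 (0.06), with 0 separated in either direction (6.21% of all genes upward and 0.683% downward).

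In the p53 pathway, where all carriers and only part of the non-carriers were mutant, 21 genes were tested and the median was 0.03 (-0.25 after quantile normalization). Of the 21, 11 had a positive and 10 a negative log2 difference, where 8971 of all 12454 genes had a positive and 3483 a negative one. Separated downward were 2 (0.683% of all genes) and upward 0 (6.21% of all genes). Both separated members are known targets of p53, and the part of p53 status in them was not tested. The cell death gene bbc3, also called puma, had 4.66, 0.598, 0.698 and 2.35 FPKM in non-carriers and 0, 0.127, 0 and 0 in carriers (log2 difference -1.38, SE 0.47, limma adjusted p = 0.315), and mdm2, the ubiquitin ligase of p53, named after its values were seen, had 2.51, 2.65, 2.07 and 4.12 against 2.03, 1.37, 1.15 and 1.94 FPKM. In bbc3 the lower level of carriers was seen beside both non-carrier genotypes, with log2 differences of -1.50 against WT and -1.25 within HBx carriers. The level filter used the mean of all 8 libraries, so bbc3, near 0 in carriers, entered only through the non-carriers. The count of 2 separated downward rests in part on that choice. For baxa, of the cell death family of Bax, the values were 69.5, 31.0, 18.5 and 30.4 against 10.4, 8.07, 34.5 and 15.9 FPKM, with log2 differences of -2.23 without HBx and -0.01 with HBx (interaction adjusted p = 0.832). The cyclin gene ccng1 had 997, 1296, 978 and 698 against 631, 662, 699 and 566 FPKM (log2 difference -0.60), overlapping by less than 1 FPKM, and the repair gene xpc had a log2 difference of 0.82.

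The genes around Src signalling had a median of 0.31 over 17 tested members, and -0.04 after quantile normalization. Separated upward were 2 of the 17 (11.8%, against 6.21% of all genes), and 1 of them was src, by which the groups were made. The other was lyn, another kinase of the family known from blood cells, with 2.31, 2.14, 0.604 and 1.38 FPKM in non-carriers and 3.202, 4.94, 5.42 and 4.72 in carriers (log2 difference 1.13, adjusted p = 0.289), beside the higher leukocyte markers. The part of leukocytes in this result was not tested. The Src substrate caveolin, cav1, had 38.5, 38.8, 72.9 and 38.6 against 117, 100.4, 65.6 and 71.3 FPKM (log2 difference 0.91, adjusted p = 0.342). Among 34 genes of insulin and FoxO signalling (median 0.31), mknk1, a kinase of the translation factor eIF4E, had 1.03, 2.03, 3.58 and 5.37 against 9.26, 10.1, 8.66 and 11.7 FPKM (log2 difference 1.57, adjusted p = 0.179), and socs1a, a feedback inhibitor of cytokine signals, had 0.400, 3.36, 1.55 and 1.95 against 3.65, 9.81, 5.14 and 6.25 FPKM. The fasting-induced igfbp1a, a binding protein of insulin-like growth factors, had 7265, 55.1, 2354 and 886 FPKM in non-carriers and 157, 39.3, 76.5 and 46.3 in carriers, with WT library 2 among the carriers (log2 difference -3.79, SE 1.29, adjusted p = 0.315). Without that library, singled out here after its value was seen, the log2 difference was -5.54, and WT was left with 1 library. Its paralog igfbp1b followed, with 472, 46.6, 129.9 and 210.0 against 80.9, 6.96, 3.13 and 41.4 FPKM, and the glycolytic eno1a had 4.82, 35.5, 20.7 and 23.2 against 126, 251, 35.8 and 22.7 FPKM (log2 difference 1.99). Both igfbp1a and eno1a are also on the hypoxia list, as is pdk2b. The 17 tested genes of that list had a median of 0.58 (0.24 after quantile normalization). Of the 17, 11 had a positive and 6 a negative log2 difference (8971 of all 12454 genes were positive). Separated upward was 1 (5.88%, against 6.21% of all genes), and downward 1, pdk2b (0.683% of all genes).

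Lists that lay near or below the shift of all genes were iron handling, proto-oncogenes and growth control, circadian clock, glucose metabolism, fatty acid oxidation, and secreted plasma proteins, with medians of 0.33, 0.32, 0.27, 0.18, 0.15, and 0.06. Enzymes of the P450 and conjugation list had 0.41. None of these lists had a called gene. Of the cell type markers, those of hepatocytes had a median of 0.02 over 7 tested genes, with summed levels of 14196 to 32403 FPKM in non-carriers and 17187 to 24808 in carriers, so the livers were marked as liver on both sides. Red blood cell markers had a median of 0.10, those of bile duct cells 0.07, of endothelium and stellate cells 0.23, and of fat tissue 0.43, where 4 of 7 matched genes, among them adipoqb, were at 0 in all 8 libraries. Exocrine pancreas markers summed to between 7.06 and 195 FPKM in non-carriers and between 9.76 and 355 in carriers, highest in HBx,Src(p53-) library 2. Like the leukocyte markers, all 12 tested ones had positive log2 differences (8971 of all 12454 genes did). Their median was 0.68 (0.32 after quantile normalization), and 0 of these markers were separated upward (6.21% of all genes). Those of the ovary summed to between 0.204 and 16.3 FPKM in non-carriers and between 0.192 and 164 in carriers, and zp2l1, an egg coat gene, had 0, 4.06, 0 and 0 against 0.170, 3.85, 74.0 and 2.51 FPKM, so that HBx,Src(p53-) library 1 stood alone. Markers of the intestine, heart, testis, and endocrine pancreas had at most 1 tested gene each, and of the female liver list no gene was matched. The part of these cells in the differences above was not tested.

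**Figure D4:**
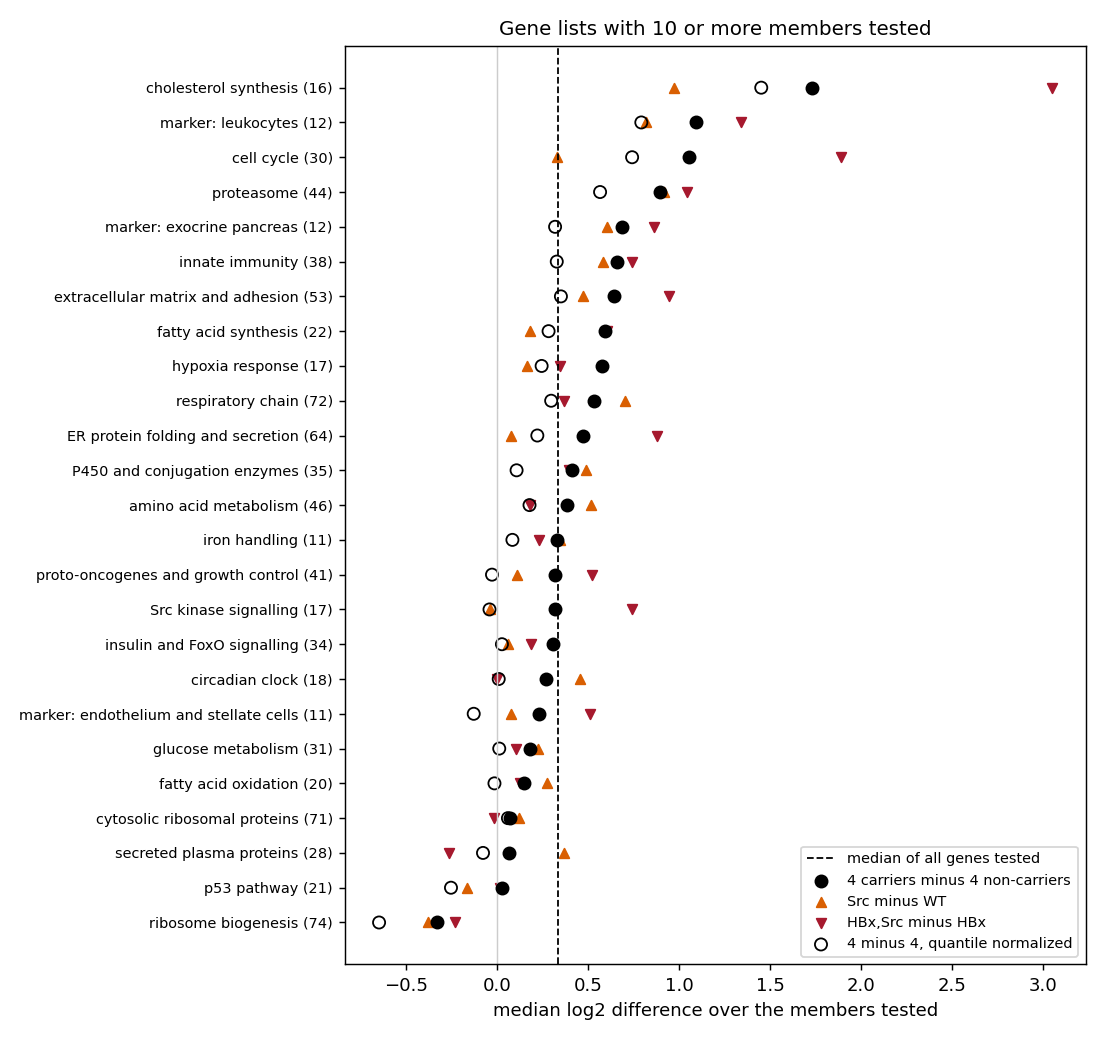
Median log2 difference of each gene list with 10 or more tested members (their number in brackets), for 4 carriers minus 4 non-carriers as filled circles, after quantile normalization as open circles, and for the pairs without HBx (upward triangles) and with HBx (downward triangles), with the median of all genes at 0.33 as a dashed line. Cholesterol synthesis lies highest, and its pair with HBx, at 3.05, and that of the cell cycle, at 1.89, lie farthest from the pair without HBx.

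The pairs of genotypes that differ in Src share no library, and they were set side by side. Src(p53-) against WT gave 11 higher and 4 lower calls with limma (0.0883% and 0.0321%), and HBx,Src(p53-) against HBx(p53-), the pair in which p53 status is the same, gave 2 and 1 (0.0161% and 0.00803%). Genes with a 2-fold difference and 2 libraries on one side of 2 numbered 1563 higher (12.6%) and 552 lower (4.43%) without HBx, and 2207 (17.7%) and 551 (4.42%) with HBx, of which 375 and 72 were common to both. Across all 12454 genes the log2 differences of both pairs had r = 0.167 and the same sign in 62.0%, as a description across genes that are not independent. Positive log2 differences were had by 8265 genes without HBx and by 8555 with HBx. Part of the common genes and of the shared signs would arise from this shift and from the size of the counts alone. Agreement beyond that was not tested. The medians of the sterol and the cell cycle lists were larger in the pair with HBx, a difference that was not tested, whereas src itself had a log2 difference of 3.53 without HBx and 1.76 with HBx (interaction adjusted p = 0.885), and HBx(p53-) lay above WT in src. With only the p53 mutant fish, as both carrier genotypes against HBx(p53-), limma called 1 higher and 1 lower gene (0.00803% each), and 1531 (12.3%) and 358 (2.87%) genes were 2-fold separated. In these fish src, sqlea, and pdk2b had log2 differences of 1.83, 3.61, and -5.07, with adjusted p-values from 0.136 to 0.281.

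The test of the interaction, which asks whether the Src difference itself differed with HBx, called 1 gene in each direction (0.00803% each), and 702 genes (5.64%) had an unadjusted p under 0.05. Both calls were lost without HBx(p53-) library 1, HBx,Src(p53-) library 2, or either Src(p53-) library (0 and 0 calls each), the positive one without HBx(p53-) library 2 (0 and 1), and there were 2 and 4 calls without WT library 2 and 1 and 4 without HBx,Src(p53-) library 1. The gene called as more positive with HBx was MSTRG.26769, again without a name. It had 24.6, 9.75, 0 and 0 FPKM in non-carriers and 0, 0, 49.1 and 57.4 in carriers, present in WT and HBx,Src(p53-) and listed at 0 in HBx(p53-) and Src(p53-) (limma adjusted p = 0.0035). The gene called as more negative was si:dkeyp-73d8.9, with -8.88 (SE 0.65, adjusted p = 0.0035). Other named genes with the smallest p had similar on-and-off patterns among genotypes. The gene zgc:153219 had 321, 74.7, 7.83 and 4.64 FPKM in non-carriers and 1.60, 4.37, 143 and 77.6 in carriers (interaction 9.30, SE 1.105, adjusted p = 0.0574). The gene zgc:171534 was found in the Src(p53-) pair alone, with 33.0, 45.9, 0 and 0 FPKM in the carriers and 0, 0, 0.0506 and 0 in the others (interaction adjusted p = 0.0574). The hepcidin gene hamp, the hormone that limits iron export, had 5.12, 7.13, 1.33 and 0.268 against 0.151, 1.09, 7.17 and 13.3 FPKM (interaction 4.84, SE 0.81, adjusted p = 0.25), lower in HBx(p53-) and Src(p53-) than in WT and in HBx,Src(p53-). For si:dkey-253d23.3 the interaction was -3.55 and for mtmr8 3.82, with adjusted p-values of 0.392 and 0.334.

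**Figure D5:**
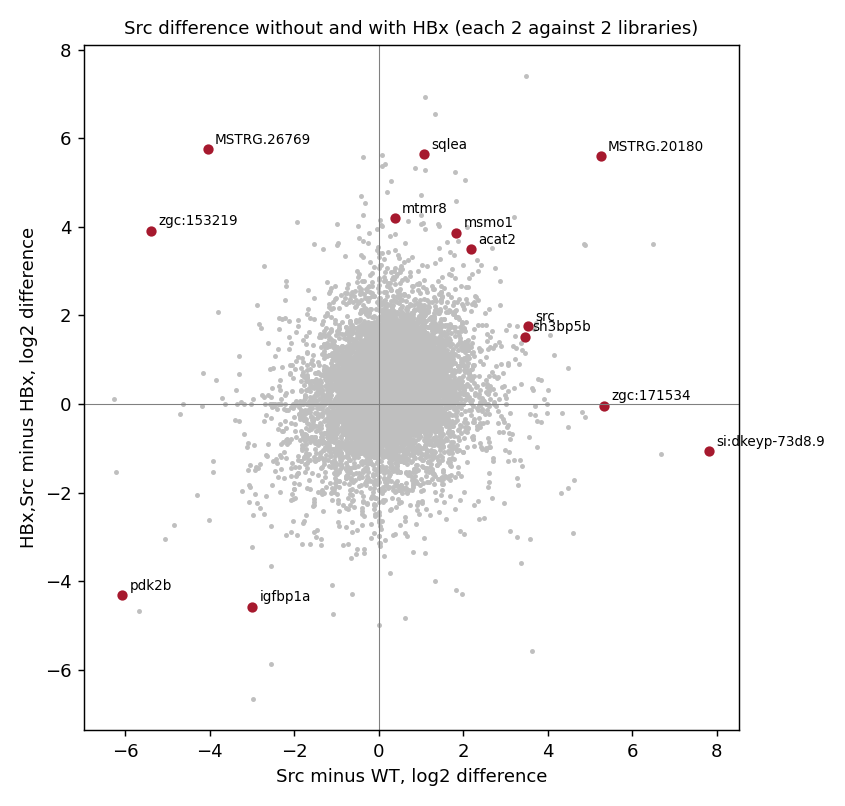
Log2 difference of each of 12454 genes in the pair without HBx (horizontal axis, Src(p53-) minus WT) against that in the pair with HBx (vertical axis, HBx,Src(p53-) minus HBx(p53-)), each from 2 libraries against 2, with some genes of the text in red. MSTRG.20180 lies high in both, src, sh3bp5b, acat2, and msmo1 lie in the upper right, pdk2b and igfbp1a in the lower left, and MSTRG.26769, zgc:153219, and si:dkeyp-73d8.9 lie on opposite sides of zero.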

How the data were processed

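Liver RNA of 16 zebrafish libraries was sequenced, and the 8 NOR libraries were compared. Per the submitters' processing notes and the study's methods, the authors checked reads with FastQC 0.11.5, aligned them with HISAT2 2.1.0 to GRCz10, and assembled them with StringTie 1.3.4d. They deposited 1 table of FPKM values per gene, which is normalized for transcript length and sequencing depth. It holds 35885 entries, of which 12235 carry RefSeq transcript names. Of these, 11790 matched a gene symbol, and values of entries with the same symbol were summed, which left 35853 genes. An entry shows 1 transcript name only, and whether it covers the other transcripts of a gene is not stated. Of 891 genes whose mean reached 100 FPKM, 6 were listed at 0 in at least 1 NOR library, all of them without a name.

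Values were taken as log2(FPKM + 1), and differences on this scale understate the change of low genes. All genes whose mean over the 8 libraries reached 1 FPKM, 12454 in number, were fitted with limma 3.58.1 in R 4.3.3, with a term for each of the 4 genotypes, moderated variances, and Benjamini-Hochberg adjustment over all genes tested. A low gene could pass this filter through the libraries of 1 side alone, which favours large differences among low genes. The Src contrast is the average of both carrier genotypes minus that of both non-carrier genotypes, and the interaction is the difference of the Src differences with and without HBx. Libraries were called separated where all 4 carriers lay on one side of all 4 non-carriers. The exact permutation test was used for src, fabp10a, and MSTRG.20180. On simulated data over 12454 genes, with 200 genes changed in the Src contrast, the fit recovered 0, 44, and 127 of 200 at log2 changes of 1, 2, and 3, so small changes mostly go uncalled at this number of libraries. No count test was possible on FPKM.

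The 22 gene lists and 13 marker lists, the groups, and the tests were chosen with earlier results of these data known. Named were src and fabp10a, the genes the study measured by qPCR, in each direction the 10 separated genes of smallest p, the 4 members of each list with the smallest p, and the 3 genes with the smallest p of the interaction in each direction, and others are marked as chosen later or serve as examples. Some genes that this rule names are not reported here. Alternatives were another pseudocount, other level filters, equal sums, quantile normalization, robust variances, all 16 libraries, 2 groups, p53 mutants only, a replicate block, and leaving out each library.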

Additional observations from a re-analysis of the deposited data

Results flagged for a closer look

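Single libraries stood far from the other 3 of their side in 10 of 146 sets of 4 values tested (6.85%). The rate of about 1 in 20 that chance gives for normally distributed values does not apply here. Each set mixed 2 genotypes, and gene levels were taken as FPKM, some of them at 0 in the other 3 libraries. Among non-carriers, WT library 2 was apart in 3 of these 10 sets. It had 293 FPKM of gck against 0.860 to 1.64 in the other 3, a mean of 5.73 over the amino acid metabolism genes on the log2(FPKM + 1) scale, the lowest of its side, and a mean of 2.099 over the ovary markers, the highest. HBx(p53-) library 2 had 14.8 FPKM of pparg, and HBx(p53-) library 1 had 2.78 FPKM of zgc:171242 and 0.0506 FPKM of zgc:171534, the latter a very low level, with the other 3 non-carriers at 0. Among carriers, HBx,Src(p53-) library 1 had 5.86 FPKM of ccne1 and 19.1 FPKM of plpp5, Src(p53-) library 2 had 0.127 FPKM of bbc3 with the other carriers at 0, and Src(p53-) library 1 had the lowest mean over the fatty acid synthesis genes, 4.38.

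The Src difference itself differed with HBx by limma's interaction test in MSTRG.26769, by 9.81 on the log2 scale, and in si:dkeyp-73d8.9, by -8.88. MSTRG.26769 was at 0 in both HBx(p53-) and both Src(p53-) libraries, and the size of its interaction therefore depends on the pseudocount.

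The libraries of the obesity diets, overfeeding (DIO) and high-fat feed (FAT), entered no comparison above except the fit of all 16. The Src(p53-) DIO library had 74.2 FPKM of MSTRG.20180 and 47.3 FPKM of src, and the Src(p53-) FAT library had 10.5 and 4.90 FPKM. In the libraries labelled HBx,Src(p53-) DIO, MSTRG.20180 was listed at 0 in both, and src was at 3.47 and 4.34 FPKM, while the highest src level of a non-carrier on these diets was 4.24 FPKM, in WT DIO. The highest level of MSTRG.20180 in a non-carrier on these diets was 10.1 FPKM, in HBx(p53-) FAT.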

How the results depend on the processing

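The src difference of 2.65 kept its direction and an exact p of 0.0286 with equal sums, a pseudocount of 0.1, and each library left out (2.16 to 2.95), and the call of MSTRG.20180 was kept in every alternative named here. The exact p of src is the smallest that such splits allow, so its staying the same adds nothing beyond the separation. Calls higher and lower in carriers, 2 and 0, were 17 and 2 with all 16 libraries, 8 and 4 with a pseudocount of 0.1, 11 and 4 without HBx, 2 and 1 within HBx carriers, 1 and 1 among p53 mutants, 1 and 0 with 2 groups, no level filter, or quantile normalization, and 1 to 5 and 0 to 9 with single libraries left out. The 2-fold separated genes, 426 and 58, were 172 and 27 at a mean of at least 10 FPKM, 146 and 156 after quantile normalization, 1531 and 358 among p53 mutants, 2207 and 551 within HBx carriers, 1563 and 552 without HBx, and 440 to 1396 and 60 to 239 with single libraries left out. The shorter lists of libraries make separation easier by construction. Interaction calls, 1 positive and 1 negative, were 2 and 4 with all 16 libraries, 0 and 0 without the level filter, 2 and 2 with robust variances, and 0 to 2 and 0 to 4 with single libraries left out. Deviations of same-numbered libraries correlated between -0.23 and 0.21, and with a replicate block the calls stayed at 2 and 0. Whether libraries shared a day or batch cannot be told from these values.

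List medians that moved were, with quantile normalization, P450 and conjugation 0.11, Src signalling -0.042, innate immunity 0.33, bile duct -0.27, endothelium -0.13, and fat 0.10. Within HBx carriers they were ER 0.88, Src signalling 0.74, cell cycle 1.89, cholesterol 3.05, bile duct 0.79, fat 0.78, and hepatocyte -0.46. Without HBx they were Src signalling -0.039, cell cycle 0.33, hypoxia 0.16, bile duct -0.31, fat 0.081, and hepatocyte 0.50. With a pseudocount of 0.1 they were cell cycle 1.71, cholesterol 2.92, and leukocytes 1.67, and at a mean of at least 10 FPKM cholesterol 2.75 and innate immunity 0.36. Leaving out single libraries gave iron handling -0.080 to 0.47, ribosome biogenesis -0.77 to 0.13, p53 pathway -0.40 to 0.34, bile duct -0.05 to 0.20, hepatocyte -0.15 to 0.18, glucose metabolism -0.06 to 0.56, fatty acid oxidation -0.09 to 0.38, insulin and FoxO -0.02 to 0.50, plasma proteins -0.05 to 0.19, and red blood cells -0.10 to 0.40, all turning sign. Of the lists that did not turn, P450 ranged from 0.17 to 0.56 and amino acid metabolism from 0.16 to 0.58.

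Directions turned without HBx for MSTRG.26769 (-4.05), agpat4 (-0.35), ccne1 (-0.55), hamp (-2.19), and hmgcra (-0.41). They turned within HBx carriers for fabp10a (-0.48), plpp5 (0.88), si:dkey-253d23.3 (-0.52), si:dkeyp-73d8.9 (-1.07), zgc:153219 (3.91), and zgc:171534 (-0.036), and among p53 mutants for fabp10a (-0.48), irf1b (-0.10), plpp5 (0.29), si:dkeyp-73d8.9 (-0.93), and zgc:153219 (1.50). They turned after quantile normalization for ccne1 (-0.23), hamp (-0.11), and plpp2b (-0.057), and with equal sums for fabp10a (-0.031). With single libraries left out, agpat2 ranged from -0.23 to 0.94, ccne1 from -0.11 to 0.62, fabp10a from -0.17 to 0.21, and plpp5 from -1.04 to 0.22. The cause was not tested. Depth behind a gene is unknown from FPKM, so a value of 0 carries no limit.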
